A study of Mus musculus with 56 samples.

Results

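The genes described here are 8 membrane transporters that carry organic anions, bile salts or organic cations: Slc10a1, Slco1a1, Slco1a4, Slco1b2, Slco2b1, Slco2a1, Slc22a7 and Slc47a1. They were found by mapping the RefSeq accession of each array probe to a gene symbol, and are 8 of the 20018 genes that could be named this way, with 10 of the 55681 probes. Slc10a1 and Slco2b1 have 2 probes each and the other 6 genes have 1. Each gene is given by its brightest probe in a tissue, and the second probe of Slc10a1 and Slco2b1 is given beside it.

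RNA came from liver, lung and forestomach of male MutaMouse (MutaTMMouse in the labels), a transgenic mouse strain in which mutations can be scored, aged about 14 weeks. Mice were gavaged daily for 28 days with the olive oil vehicle (group D0) or with the polycyclic aromatic hydrocarbon chrysene dissolved in it. Daily doses were 17.5 mg/kg body weight in D1, 50 mg/kg in D2 and 150 mg/kg in D3, and tissues were taken 72 h after the final dose. Groups D0 to D3 held 5, 5, 4 and 5 mice in liver and forestomach and 5, 5, 3 and 5 in lung, for 56 arrays from 19 mice, 18 of which gave all 3 tissues. Sample RNA was labelled with Cy5 and a reference RNA pooled from mouse cell lines with Cy3 on every array, and values below are log2 ratios of Cy5 over Cy3, so a value of 0 is also what a spot without signal in either dye gives. Whether a probe was measured at all is therefore given by the scanner's flag for a Cy5 spot well above background.

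Liver cells take up bile salts, steroid conjugates, thyroid hormones and many drugs from portal blood through transporters of the basolateral membrane before these are metabolized and passed to bile or back to blood. The solute carrier organic anion family (Slco genes, OATP proteins) and the sodium-dependent bile salt carrier NTCP (Slc10a1) do most of this uptake, the organic anion carrier OAT2 (Slc22a7) adds to it, and MATE1 (Slc47a1) moves organic cations out of cells in exchange for protons. Hepatic transporter genes are known targets of liver-enriched transcription factors such as HNF1 and HNF4 and of nuclear receptors that sense bile acids and xenobiotics, while polycyclic aromatic hydrocarbons act through the aryl hydrocarbon receptor (AhR).

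Promoter sequence is shown for 4 of the members because the differences between tissues below turn on them: Slco1b2, Slco1a1 and Slc10a1 as hepatic uptake carriers, and Slco2a1, the prostaglandin carrier, as a member with its highest value in lung. Sequences are the 250 bases before an annotated start site in RefSeq on assembly GRCm38.p6, written 5′ to 3′ on the gene's strand. The RefSeq table held 9 promoters for 6 members and none for Slc22a7 and Slc47a1. Capitals mark 3 short motifs searched on both strands: GTTAAT from the HNF1 motif, AGGTCA to which many nuclear receptors bind, and GCGTG, the core bound by AhR. The windows are chr6:141629268-141629517 on the plus strand for Slco1b2, chr6:141946963-141947212 on the minus strand for Slco1a1, chr12:80968080-80968329 on the minus strand for the second of 2 Slc10a1 promoters, and chr9:103008237-103008486 on the plus strand for Slco2a1.
Slco1b2: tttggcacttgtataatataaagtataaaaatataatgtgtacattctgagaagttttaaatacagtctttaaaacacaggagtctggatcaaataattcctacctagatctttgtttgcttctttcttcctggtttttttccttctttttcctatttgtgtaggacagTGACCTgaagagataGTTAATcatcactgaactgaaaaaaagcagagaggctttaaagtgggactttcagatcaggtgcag
Slco1a1: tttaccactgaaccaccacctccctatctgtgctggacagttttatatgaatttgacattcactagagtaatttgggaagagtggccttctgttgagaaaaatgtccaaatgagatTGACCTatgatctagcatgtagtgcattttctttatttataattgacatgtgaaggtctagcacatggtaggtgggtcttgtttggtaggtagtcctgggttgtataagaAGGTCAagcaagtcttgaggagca
Slc10a1: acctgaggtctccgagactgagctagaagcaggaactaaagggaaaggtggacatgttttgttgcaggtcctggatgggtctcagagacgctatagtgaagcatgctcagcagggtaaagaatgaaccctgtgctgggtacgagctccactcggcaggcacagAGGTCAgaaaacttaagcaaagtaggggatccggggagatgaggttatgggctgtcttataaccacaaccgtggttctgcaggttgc
Slco2a1: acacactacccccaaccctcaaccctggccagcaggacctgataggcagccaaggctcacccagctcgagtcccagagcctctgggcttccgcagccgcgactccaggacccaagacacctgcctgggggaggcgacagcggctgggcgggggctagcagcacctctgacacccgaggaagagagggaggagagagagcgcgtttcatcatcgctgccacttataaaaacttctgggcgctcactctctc
The Slco1b2 window holds GTTAAT at position -66, counted from the start site, and AGGTCA on the opposite strand at -81. The Slco1a1 window holds AGGTCA at -134, on the opposite strand, and at -24, and the Slc10a1 window holds it at -87. Among the 32851 promoters of the same length in the table, 6.43% hold GTTAAT, 14% hold AGGTCA and 28.2% hold GCGTG. None of the 9 member promoters holds GCGTG, which says only that these letters are not in these windows. The other Slc10a1 promoter, the 3 of Slco2b1 and those of Slco1a4 and Slco2a1 hold none of the 3 motifs.

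Slco1a1, Slco1a4 and Slco1b2 lie beside each other on chromosome 6, at chr6:141907281-141946962, chr6:141805438-141856284 and chr6:141629452-141686646 (GRCm38.p6). The others are on separate chromosomes: Slc10a1 at chr12:80953185-80968705, Slco2b1 at chr7:99657804-99711340, Slco2a1 at chr9:103007061-103096002, Slc22a7 at chr17:46432185-46438477 and Slc47a1 at chr11:61343400-61378842. The files give probe accessions and not the exon or UTR a probe lies in.

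Tissue identity was checked first with lists of marker genes. The mean log2 ratio of 10 hepatocyte genes was 6.64 to 7.02 on the liver arrays and 0.22 to 0.69 on the lung arrays, that of 8 alveolar type 2 genes was 5.39 to 5.85 in lung, and that of 12 keratinocyte genes was 3.49 to 6.03 in forestomach. Over the forestomach arrays the mean of 11 glandular stomach genes ranged from 0.24 to 7.12, so these arrays differed widely in that signal. A Cy5 signal well above background was found on 34.5% to 46.4% of spots in liver, 49.0% to 56.7% in lung and 18.9% to 51.7% in forestomach. On forestomach slide 3, which held 7 arrays from all dose groups, the share was 40.4% to 51.7%, and on slides 1 and 2 it was 18.9% to 34.9%. The lung arrays of D3 mice 17 and 19 stood apart, with a mean of 5.41 and 5.61 over 12 skeletal muscle genes against -0.95 to -0.29 on the other 16 lung arrays, and a mean of 2.72 and 3.09 over 12 keratinocyte genes against -0.32 to -0.17. Each tissue was hybridized on 3 slides of its own, so tissue and slide cannot be told apart.

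All 8 members were measured on all 19 liver arrays. In lung, 3 members were measured on all 18 arrays, 1 on some and 4 (Slco1a1, Slco1a4, Slco1b2 and Slc22a7) on none. In forestomach, 1 member was measured on all 19 arrays, 5 on some and 2 (Slco1a1 and Slco1a4) on none. The plot of all arrays by tissue shows the liver arrays of 6 members above every array of the other tissues. In whole tissue, fewer cells of a type and less RNA per cell cannot be told apart.

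**Figure D1:**
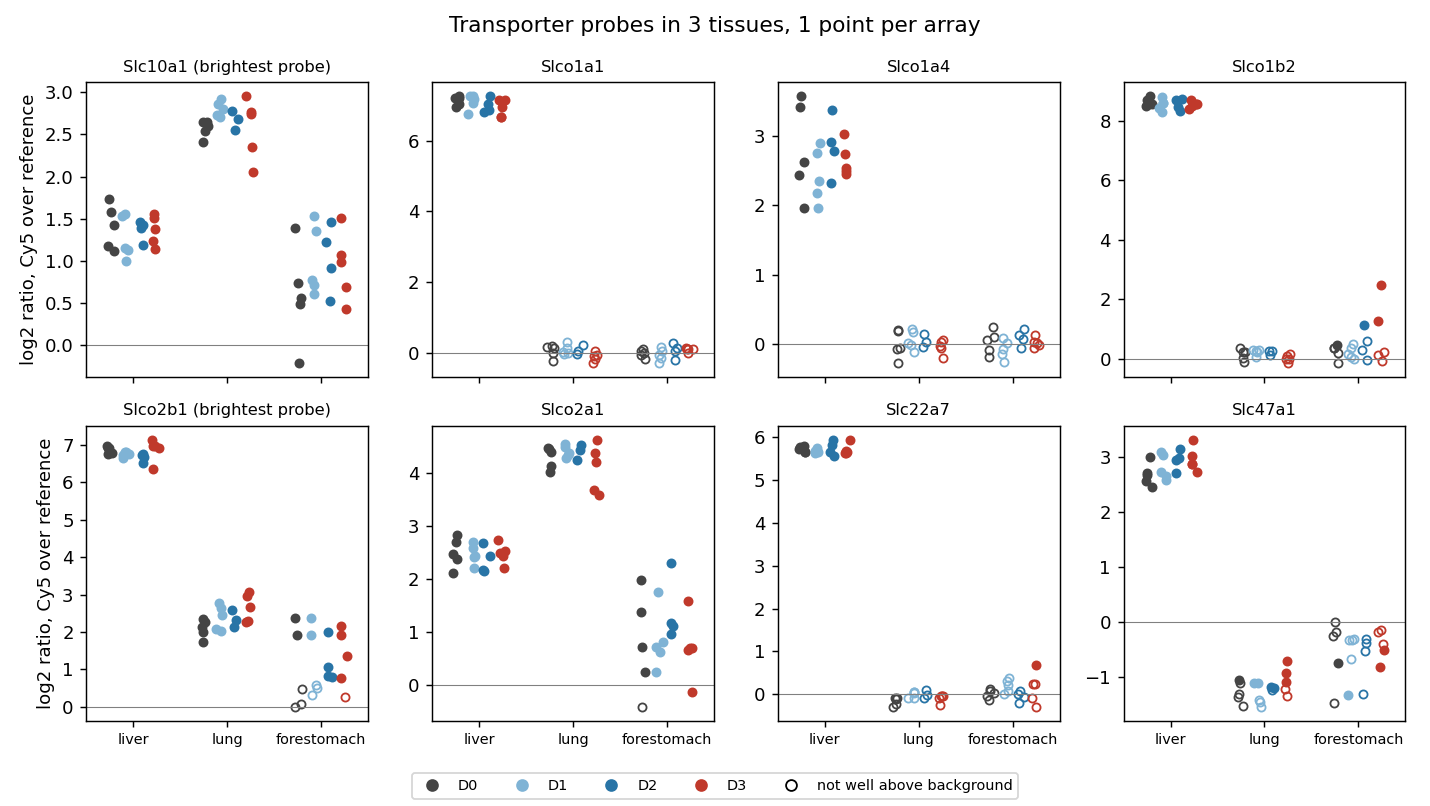
Log2 ratio of Cy5 over reference (vertical axes, 1 scale per panel) for the brightest probe of each of the 8 transporters in liver, lung and forestomach. Points are arrays coloured by dose group D0 to D3, and open points are spots not well above background. Liver arrays of Slco1b2 lie between 8.30 and 8.83, and the lung arrays lie above all liver and forestomach arrays for Slco2a1 (3.58 to 4.63) and for the brightest Slc10a1 probe (2.05 to 2.96).

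Slco1b2 and Slco1a1 were measured on every liver array and on no lung array. Slco1b2 encodes OATP1B2, a hepatocyte carrier of bile salts, bilirubin conjugates and drugs. In the 5 D0 livers its log2 ratios were 8.48, 8.56, 8.83, 8.70 and 8.54. None of the 18 lung arrays had it well above background, and the D0 lungs averaged 0.15 ± 0.18 (SD, n = 5). In forestomach 1 of 5 D0 arrays had it well above background, with a mean of 0.25 ± 0.24 (SD, n = 5). The D0 livers lay above all arrays of both other tissues, and no test against lung is given because the spot was not measured there.

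Slco1a1 encodes OATP1A1, a basolateral carrier of bile salts and steroid sulfates found in male mouse liver. The D0 livers gave 7.21, 7.04, 7.26, 6.96 and 7.22. On all lung and forestomach arrays the spot was not well above background, with ratios of -0.30 to 0.29. Liver was at least 76.7-fold higher than lung and at least 72.5-fold higher than forestomach. Such a lower bound rests on Cy5 alone and sets the normalized level in liver against the higher of the probe's own signal and the dimmest signal counted as above background on each array of the other tissue. Slco1a4, its neighbour and the gene of OATP1A4, which also serves the blood-brain barrier, gave smaller bounds. The D0 livers were at 3.41, 1.96, 2.62, 2.44 and 3.58, the widest range of any member in liver. No lung or forestomach array had it well above background. Liver was at least 4.73-fold higher than lung and at least 4.51-fold higher than forestomach. These members entered the fit through liver alone, where they are high, so no test is given for them.

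Slc22a7, the gene of OAT2, was the most even member in liver. Its D0 livers gave 5.80, 5.72, 5.67, 5.67 and 5.77, and all 19 livers lay between 5.57 and 5.95. It was well above background on 0 of 18 lung arrays and 1 of 19 forestomach arrays, that of D3 mouse 20, at 0.69. The D0 means there, neither of them from measured spots, were -0.16 ± 0.10 and 0.01 ± 0.10 (SD, n = 5). The Cy3 signal at this probe was also higher on liver arrays, with a median of 605 against 49.5 in lung. At the Slco1b2 probe it was 296 against 42. The reference RNA was the same on every array, and what raised the Cy3 signal was not tested. Ratios and Cy5 levels thus give different sizes here, and neither a lower bound nor a test against lung is given for these genes.

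Slco2b1 and Slco2a1 were measured on all liver and lung arrays, and on 12 and 18 of the 19 forestomach arrays. Slco2b1 encodes OATP2B1, a carrier of steroid sulfates found in liver and also in other epithelia and in endothelium. Its D0 livers gave 6.77, 6.78, 6.92, 6.91 and 6.97 and its D0 lungs 2.27, 2.00, 2.34, 1.73 and 2.13. The probe was well above background on 2 of 5 D0 forestomachs. They fell into separate levels, with 1.93 and 2.36 for mice 2 and 5 on slide 3 and -0.01, 0.07 and 0.48 for mice 3, 4 and 1 on the other slides. Liver exceeded lung by 4.78 (SE 0.34, adjusted p = 1.81e-17). Lung minus forestomach was 1.13, given with no test because only 2 of 5 D0 forestomachs had the probe well above background. The lung and forestomach arrays overlapped, and the difference was -0.05 (adjusted p = 0.834) when forestomach slides 1 and 2 were left out, so the order of lung and forestomach rests on those slides. With the second Slco2b1 probe liver exceeded lung by 4.32 (SE 0.24). Its lung minus forestomach difference was 0.89, also with no test, as it too was well above background on 2 of 5 D0 forestomachs.

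Slco2a1, the prostaglandin transporter, which takes prostaglandins into endothelial and epithelial cells for breakdown, had its highest ratio in lung, as did the brightest Slc10a1 probe described below. The D0 lungs gave 4.48, 4.45, 4.39, 4.14 and 4.01, the D0 livers 2.70, 2.48, 2.38, 2.83 and 2.12, and the D0 forestomachs 0.24, 1.38, 1.98, -0.42 and 0.72. These 3 sets do not overlap. On the D0 forestomachs, in the order given, the mean of 11 glandular stomach genes was 0.93, 7.09, 6.07, 0.51 and 5.71. The part of that signal in the Slco2a1 values was not tested. Liver was lower than lung by a log2 difference of -1.79 (SE 0.28, adjusted p = 2.30e-07), and lung exceeded forestomach by 3.51 (SE 0.28, adjusted p = 3.74e-15). A list of 12 endothelial genes had its highest mean in lung as well (4.63 to 5.26, against 1.32 to 1.92 in liver and 0.36 to 1.69 in forestomach), and its part in the Slco2a1 difference was not tested.

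Slc47a1 (MATE1), an efflux carrier of organic cations in liver and kidney, was above the reference in liver and below it elsewhere. The D0 livers gave 2.70, 2.45, 2.66, 2.55 and 2.99. Lung arrays ranged from -1.56 to -0.72, with 8 of 18 well above background, and forestomach arrays from -1.48 to -0.01, with 4 of 19. At D0 it was well above background on 1 of 5 lung and 1 of 5 forestomach arrays. The D0 means were 2.67 ± 0.20 in liver, -1.28 ± 0.19 in lung and -0.54 ± 0.60 in forestomach (SD, n = 5), given with no test because most lung and forestomach spots were dim. Lung minus forestomach was -0.75, with overlapping groups, and the value was -0.17 without forestomach slides 1 and 2 and 0.06 with each array centred on its median.

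Slc10a1 encodes NTCP, the sodium-dependent carrier that clears bile salts from blood into hepatocytes. Its 2 probes gave opposite accounts of the tissues. The probe that the rule selects was among the brightest on the array everywhere, ranking 42nd of 55681 probes in liver, 5th in lung and 7th in forestomach by mean Cy5 signal, and was also bright in the Cy3 reference (median 280702 on the liver arrays). Its D0 values were 1.58, 1.42, 1.17, 1.11 and 1.74 in liver, 2.65, 2.65, 2.41, 2.54 and 2.61 in lung, and -0.22, 0.74, 1.39, 0.49 and 0.56 in forestomach. By this probe lung was the highest tissue, with a liver-minus-lung difference of -1.17 (SE 0.20, adjusted p = 1.16e-06), and liver exceeded forestomach by 0.81 (SE 0.20, adjusted p = 0.000404) with overlapping arrays. The latter was -0.28 (adjusted p = 0.282) when the scanner signals were normalized anew by loess.

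The other Slc10a1 probe was well above background on all 19 liver arrays and on 0 of 18 lung and 0 of 19 forestomach arrays. Its D0 livers gave 6.30, 6.38, 6.53, 6.48 and 6.39, and its lung and forestomach arrays lay between -0.37 and 0.33. It was at least 85.4-fold higher in liver than in forestomach, a bound with no test, since the probe entered the fit through liver alone. The median Cy3 signal at this probe was also higher on liver arrays, at 130 against 42 in lung and 38 in forestomach. Across the 19 livers the 2 probes had a Pearson r of -0.12, given as a description. NTCP is known as a hepatocyte protein, and the selected probe goes against that. Both carry the same RefSeq accession, and what else the selected probe may bind was not tested. Statements on Slc10a1 below are for the selected, brightest probe where no probe is named.

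**Figure D2:**
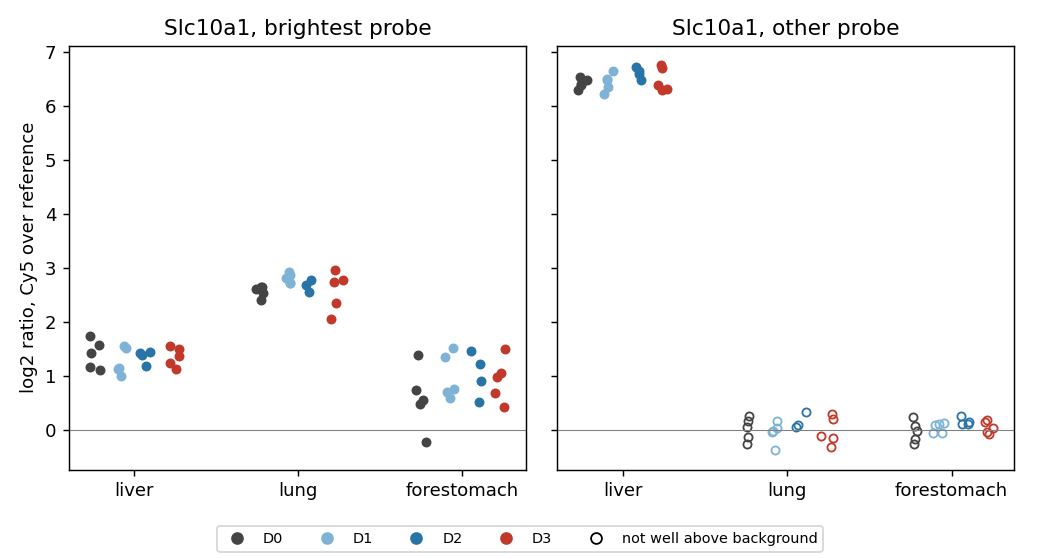
Log2 ratio of Cy5 over reference for the 2 Slc10a1 probes on a shared vertical axis, by tissue, with 1 point per array coloured by dose group and open points for spots not well above background. The brightest probe (left) is measured in all tissues and averages 1.35 in liver, 2.65 in lung and 0.88 in forestomach, while the other probe (right) averages 6.48 in liver and is not well above background elsewhere.

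A call needed a fold change of at least 1.5 and, adjusted over the probes of the fit, a p of at most 0.05. Members are counted only where at least 3 D0 arrays of both tissues had the probe well above background, since a member measured in liver alone had to differ. Between liver and lung this left 3 members, all called: Slco2b1 higher in liver, and Slco2a1 and the brightest Slc10a1 probe lower. Of all probes measured this way in both tissues 53.5% were called, 27.7% higher and 25.8% lower in liver, and of all probes tested 46% were called. Between liver and forestomach it left Slco2a1 and the brightest Slc10a1 probe, both called higher in liver, beside 52.8% of such probes called and 21.3% called higher. Over all probes tested it was 41%. Between lung and forestomach it left the same 2, both called higher in lung, also without forestomach slides 1 and 2. Of such probes 48.6% were called, with 3064 of 14283 called higher in lung, and of all tested 37.6% were called.

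In forestomach the hepatic carriers were mostly at background, and Slco1b2 had exceptions. It was well above background on 4 of 19 arrays, those of mice 2 (D0, 0.49), 13 (D2, 1.16), 19 (D3, 1.28) and 20 (D3, 2.48). Of these, 3 were among the 7 arrays of slide 3, the slide with the higher share of spots above background, and 1 was among the 12 of slides 1 and 2. The same 4 arrays had the highest means of the 10 hepatocyte genes, 2.45 to 2.79, against -0.04 to 2.19 on the other 15. On these 4 arrays 8 to 10 of the 10 hepatocyte genes were well above background, against 1 to 10 on the other 15. Albumin (Alb), a defining hepatocyte gene, was at 4.00, 3.13, 2.58 and 1.76 for mice 20, 13, 19 and 2 and at -0.18 to 2.03 on the others, so mouse 2 lies within the range of arrays without measured Slco1b2. The parts of hepatocyte RNA and of the slide in these Slco1b2 values were not tested.

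Slco2b1 in forestomach followed the slide. All 7 arrays of slide 3 had it well above background at 1.91 to 2.36, while the 12 arrays of slides 1 and 2 ranged from -0.01 to 1.36 with 5 well above background, and the ranges do not overlap. The second Slco2b1 probe was well above background on 6 of 7 arrays of slide 3 and on 1 of 12 others. The share of spots well above background differed between the same slides, as given above. The mean over 12 endothelial genes was 1.27 to 1.69 on slide 3 and 0.36 to 1.05 on the others, and that over 12 keratinocyte genes 4.95 to 6.03 and 3.49 to 4.48, also without overlap. The parts of these in the Slco2b1 levels were not tested. Slco2a1 did not divide this way, with -0.13 to 2.30 on slide 3 and -0.42 to 1.98 on slides 1 and 2.

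**Figure D3:**
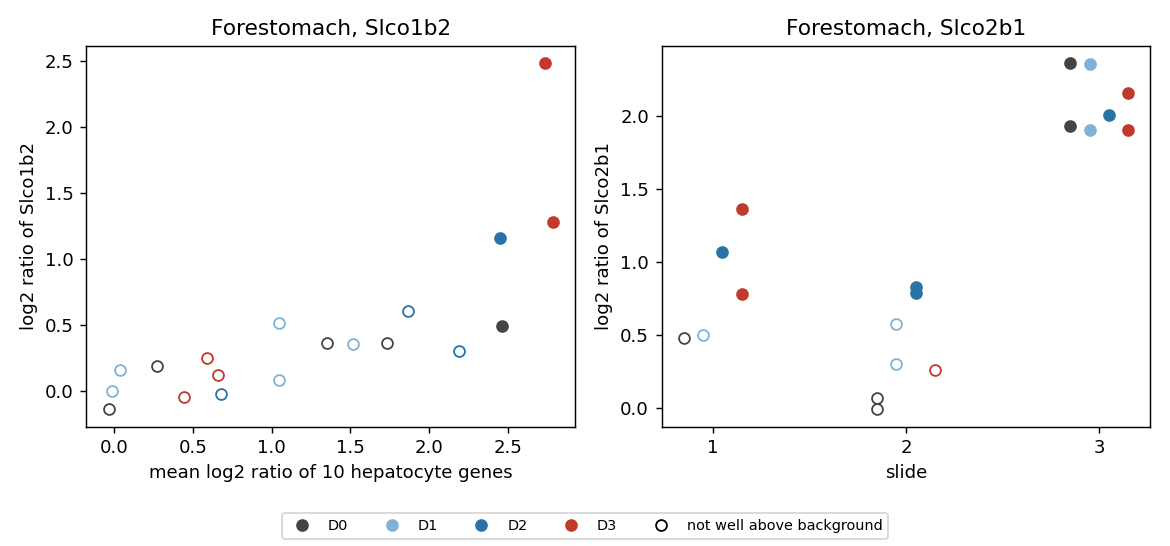
Forestomach arrays, 1 point each, coloured by dose group with open points for spots not well above background. Left, the log2 ratio of Slco1b2 against the mean log2 ratio of 10 hepatocyte genes, where the 4 filled points lie at a mean of 2.45 to 2.79. Right, the log2 ratio of Slco2b1 by slide, where the 7 arrays of slide 3 lie between 1.91 and 2.36.

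Chrysene at the doses given changed no member past the limits in any tissue. At D3, 0 of 8 members tested in liver, 0 of 4 in lung and 0 of 5 in forestomach were called, beside 0% of all probes in liver, 0.127% in lung and 0.00727% in forestomach. The counts were 0 at D1 and D2 as well, where 0% of all probes were called in each tissue. At these doses 0 members had an unadjusted p of at most 0.05. Of 24766 probes in liver, 893 had one at D1 and 937 at D2. In lung it was 1851 and 1928 of 31495, and in forestomach 1148 and 2074 of 27525. A linear trend over the dose steps called 0 members, beside 0% of probes in liver, 0.168% in lung and 0.04% in forestomach. Before adjustment the limma trend was below 0.05 for Slc47a1 in liver and for Slco2b1 in lung, and for 0 other members. The share of all probes below 0.05 for the trend was not counted, so this is no result about the members. At an unadjusted p of at most 0.05, 1 member passed in liver (Slc47a1), 1 in lung (Slco2b1) and 0 in forestomach, where 4.78%, 16.1% and 9.24% of all probes passed. At D3 no member had all its arrays beyond all D0 arrays, beside 0.739%, 2.61% and 1.39% of all probes in liver, lung and forestomach. With 8, 4 and 5 members tested, 0 is near those shares. In liver the 95% interval of the D3 change by the brightest probe lay inside the 1.5-fold limit for 7 of 8 members. In lung this held for 3 of 4, among them Slc47a1, which was well above background on only 8 of 18 arrays. Its interval thus rests largely on dim spots. In forestomach it held for 0 of 5, so those arrays were not precise enough to tell a change past 1.5-fold from none.

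**Figure D4:**
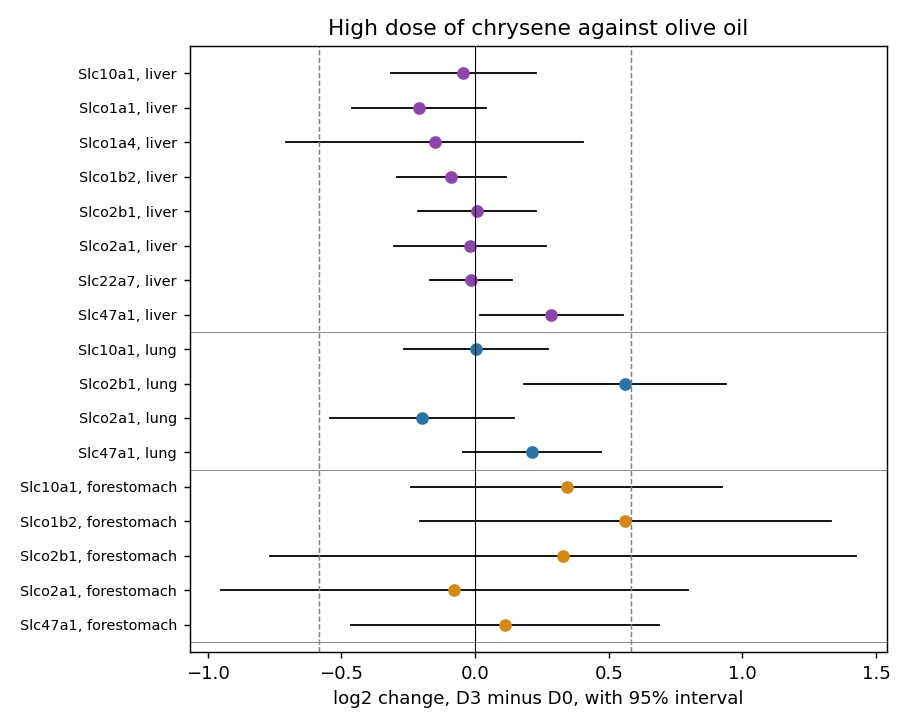
Log2 change at D3 against D0 with its 95% interval (horizontal axis) for every member tested in liver, lung and forestomach, by the brightest probe. Dashed lines mark a fold change of 1.5 in either direction. Intervals stay inside them for 7 of 8 members in liver and 0 of 5 in forestomach, and the point farthest from 0 in lung is Slco2b1 at 0.56.

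Among the uptake carriers in liver, Slco1a1 had the lowest D3 change. Its D3 livers gave 7.16, 6.69, 7.15, 6.69 and 6.96 against 6.96 to 7.26 at D0, with D1 at 6.76 to 7.28 and D2 at 6.82 to 7.26. The groups overlapped. The D3 change was -0.21 (SE 0.12, adjusted p = 1.00), and within the 3 slides it was -0.12, -0.19 and -0.25. Slco1b2 gave 8.69, 8.55, 8.38, 8.50 and 8.56 at D3, a change of -0.09 (SE 0.10, 95% interval -0.29 to 0.11). Slco1a4 gave 3.03, 2.74, 2.5, 2.53 and 2.45, a change of -0.15 with an interval of -0.71 to 0.40 that reached past the fold limit. The spread of Slco1a4 between livers of a dose group was wide, with a residual SD of 0.46 at the 97.5th percentile of all liver probes. Within slides its D3 change was 0.92, -0.01 and -1.04.

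The remaining anion carriers in liver stayed near their D0 values. The second Slc10a1 probe gave 6.75, 6.71, 6.30, 6.30 and 6.38 at D3, a change of 0.07 (SE 0.10, adjusted p = 1.00), and the brightest probe changed by -0.04 (SE 0.13). Slc22a7 changed by -0.02 (SE 0.07, interval -0.17 to 0.14), the narrowest interval of the members in liver, and its residual SD of 0.11 was at the 17.4th percentile of all liver probes. Slco2a1 changed by -0.02 (SE 0.14). Slco2b1 gave 6.92, 7.14, 6.98, 6.98 and 6.36 at D3, a change of 0.01 (SE 0.11) in which 4 arrays were near or above the D0 arrays and that of mouse 20 below them all. At D2 all 4 Slco2b1 arrays (6.69, 6.53, 6.73 and 6.75) lay below all 5 D0 arrays, with a change of -0.20 and an adjusted p of 0.998. It was the 1 member of 8 without overlap at D2 in liver, where 1.24% of all probes had none. The second Slco2b1 probe changed by 0.03 (SE 0.25) at D2 and by -0.19 (SE 0.24) at D3.

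Slc47a1, the efflux carrier, was the member in liver with the smallest unadjusted p. Its livers gave 2.70, 2.45, 2.66, 2.55 and 2.99 at D0, 3.03, 3.09, 2.72, 2.58 and 2.64 at D1, 2.97, 2.71, 3.14 and 2.93 at D2, and 3.02, 3.31, 2.87, 2.87 and 2.72 at D3. The D3 change was 0.29 (SE 0.13, unadjusted p = 0.0367, adjusted p = 1.00) and the trend amounted to 0.29 from D0 to D3 (adjusted p = 0.874), neither of which passed. Within slides the D3 change was 0.71, 0.26 and -0.13. The array's column on the slide equalled the dose step plus 1 on 17 of 19 liver arrays, so column and dose cannot be told apart on those arrays.

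In lung, Slco2b1 had the largest D3 change of the members and did not pass. Its arrays gave 2.28, 2.96, 2.30, 3.07 and 2.66 at D3 for mice 16 to 20, against 1.73 to 2.34 at D0, 2.02 to 2.77 at D1 and 2.14 to 2.58 at D2. The change was 0.56 (SE 0.18, unadjusted p = 0.00583, adjusted p = 0.164). The 2 highest arrays were those of mice 17 and 19, and without them the change was 0.32 (adjusted p = 0.575). Those arrays also had the skeletal muscle and keratinocyte genes given above, and their macrophage means were 2.99 and 2.12 against 1.48 to 2.18 elsewhere, with 8 of 9 macrophage genes well above background. Their means over 8 smooth muscle genes were 2.26 and 1.95 against 0.66 to 1.23 elsewhere. The part of these cell types in the Slco2b1 values was not tested. Within the 3 slides the change was 0.82, 0.96 and 0.24, but it was -0.09 with the array column as a covariate, a column that equalled the dose step plus 1 on 16 of 18 lung arrays. The second Slco2b1 probe changed by 0.22 (SE 0.17, adjusted p = 0.550). Over the alternatives run, the Slco2b1 change in lung ranged from -0.09 to 0.67, with a lowest limma adjusted p of 0.0902, so none was called.

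The same 2 arrays were the lowest for Slco2a1 in lung. Its D3 arrays gave 4.21, 3.68, 4.38, 3.58 and 4.63 for mice 16 to 20 and its D0 arrays 4.01 to 4.48. The change was -0.20 (SE 0.16, adjusted p = 0.582), and 0.11 (adjusted p = 0.793) without mice 17 and 19, so its direction rests on them. The 12 endothelial genes averaged 4.65 and 4.63 on these 2 arrays and 4.69 to 5.26 on the other 16. The brightest Slc10a1 probe was likewise lowest on these arrays, at 2.35 and 2.05, and changed by 0.0030 (SE 0.13) with them and by 0.25 (SE 0.08, adjusted p = 0.369) without them. At D1 its 5 arrays, 2.71 to 2.92, all lay above the D0 arrays, 2.41 to 2.65, a change of 0.24 with an adjusted p of 0.85. It was 1 of 4 members tested without overlap at D1, beside 1.4% of all lung probes. Slc47a1 changed by 0.21 (SE 0.12, adjusted p = 0.402), and by 0.05 without mice 17 and 19. Over all probes the lung calls at D3 fell to 0 of 31495 when these mice were left out.

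**Figure D5:**
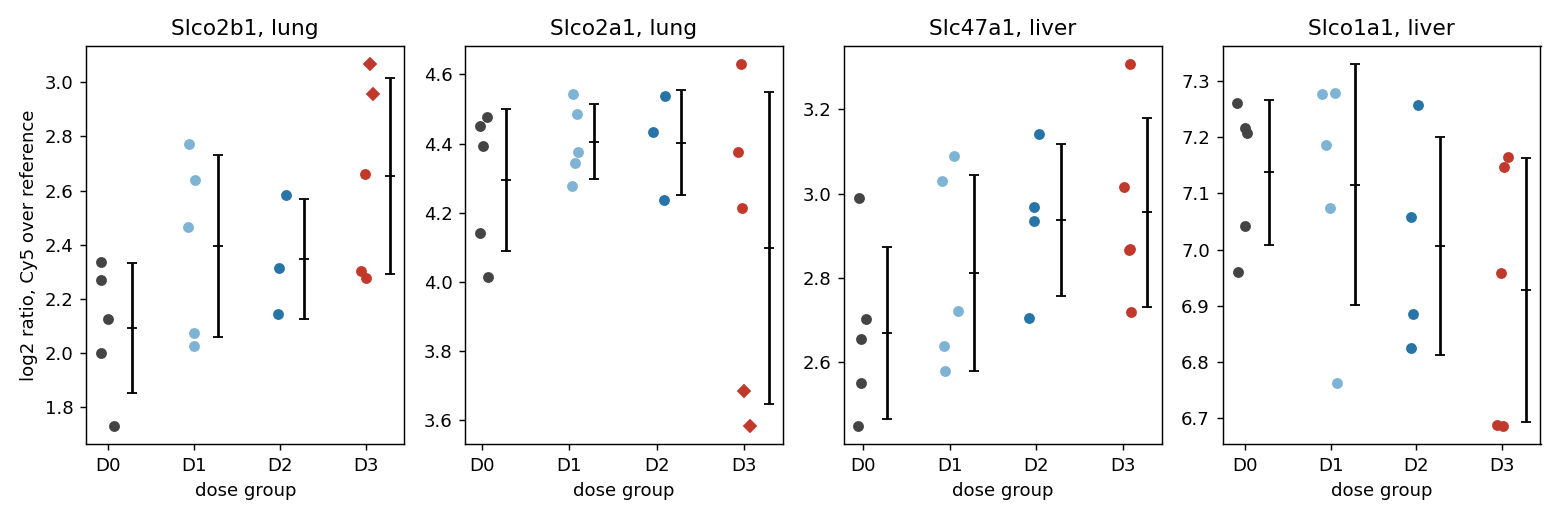
Log2 ratio of Cy5 over reference by dose group for Slco2b1 and Slco2a1 in lung and Slc47a1 and Slco1a1 in liver, 1 point per mouse, with the mean ± SD beside each group. Diamonds are lung mice 17 and 19, which hold the highest Slco2b1 values (2.96 and 3.07) and the lowest Slco2a1 values (3.68 and 3.58).

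Forestomach arrays varied more between mice over all probes, with a median residual SD of 0.28 against 0.16 in liver and 0.16 in lung. Among the members residual SDs were 0.89 for Slco2b1, 0.70 for Slco2a1 and 0.62 for Slco1b2, at the 95th, 91.6th and 88.9th percentiles of all forestomach probes. The brightest Slc10a1 probe and Slc47a1 were at the 80.3rd and 79.9th percentiles there, and at the 78th and 76.7th in liver. The D3 change was 0.56 for Slco1b2 (SE 0.36, adjusted p = 0.707), with mice 19 and 20 highest, and 0.15 without mouse 20. It was 0.33 for Slco2b1 (SE 0.52) and 0.12 by its second probe (SE 0.27). For Slco2a1 it was -0.08 (SE 0.41), for the brightest Slc10a1 probe 0.34 (SE 0.28) and for Slc47a1 0.11 (SE 0.27). A list of 11 glandular stomach genes ranged from 0.24 to 7.12 over these arrays, and with it as a covariate the Slco2a1 change was 0.23 in place of -0.08.

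No member measured in both tissues of a pair had a D3 effect that differed between them past the limits. The share of all probes with such a difference was 0% for liver minus lung, 0.0773% for liver minus forestomach and 0.703% for lung minus forestomach. The lowest unadjusted p values involved a tissue where the probe was not measured, so no test is given for them. They were those of Slco1a1 between liver and forestomach, where 0 of 19 forestomach arrays had the probe well above background, and of Slco1b2 between lung and forestomach. For Slco1b2, 0 of 18 lung and 4 of 19 forestomach arrays had it well above background.

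Members were then compared with each other across the 19 livers, as deviations from the dose-group means. Of 28 pairs, 2 passed an adjusted permutation p of 0.05 by Pearson's r. Slco1a4 and Slc47a1 varied together (r = 0.64, permutation p = 0.00307, adjusted 0.0430; Spearman's rho = 0.74, adjusted 0.0098), with r = 0.51 without the 2 livers farthest from the median of Slco1a4. Within slides 1, 2 and 3 their r was 0.80, 0.86 and 0.37 over 6, 7 and 6 livers. Slco1a4 and the brightest Slc10a1 probe gave r = 0.65 (permutation p = 0.00275, adjusted 0.0430; rho = 0.64, adjusted 0.0397), with r = 0.55 without the 2 farthest livers and 0.66 with slide means removed. Slco2a1 and Slc47a1 varied in opposite directions with r = -0.59 (permutation p = 0.00756, adjusted 0.0706), which passed by rank (rho = -0.63, adjusted 0.0397). With ratios normalized anew from the scanner signals 0 pairs passed by Pearson's r and 1 by rank, with r of up to 0.62. With the other Slc10a1 probe 0 passed by Pearson's r and 1 by rank, and the highest r was 0.64 (smallest adjusted p = 0.0860).

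For each member the genes with the most similar profile over the 19 livers were sought among 12629 named genes, with Pearson's r as a description. Slco1a4 was closest to Slc2a9, a urate carrier (0.92), Cyb5a, cytochrome b5 (0.88), and Slc17a4 (0.87). Slco1b2 was closest to Adh4, an alcohol dehydrogenase (0.88), Slc26a1, a sulfate carrier (0.84), and Ralgps1 (0.82). Slc22a7 was closest to Cyp2c39 (0.86), Itih2 (0.85) and Cyp4f14 (0.84), of which Cyp2c39 and Cyp4f14 encode cytochrome P450 enzymes. Slc47a1 was closest to Slc22a29, an organic anion carrier (0.84), Clcn2, a chloride channel (0.83), and Man2a1 (0.83).

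The other members had weaker or less familiar neighbours. Slco1a1 was closest to Ggcx, the vitamin K-dependent carboxylase (0.81), Mxd1 (0.80) and Olfr1347 (0.79). Slco2b1 was closest to Papss2, which makes the sulfate donor PAPS (0.82), Smyd4 (0.81) and Gpt2 (0.80), and Slco2a1 to Gpr108 (0.83), Ssr4 (0.81) and Rpl38 (0.80). The brightest Slc10a1 probe was closest to Kctd14 (0.98), Elk1 (0.97) and Csf3r (0.97), and the other Slc10a1 probe to Hnrnpl (0.83), Sgk2 (0.83) and Apoo (0.80), so the nearest 3 genes of the probes differ. These points share arrays, slides and normalization.

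The wider pathway was described at D3 beside all probes. Of 15 genes of bile acid synthesis and conjugation, all measured in liver, 0 were called, as was 0% of all liver probes, with a median change of -0.01 beside -0.01 over all liver probes. Cyp7a1, the rate-limiting enzyme of bile acid synthesis, gave -0.34 (SE 0.44, adjusted p = 1.00) and Baat, which conjugates bile acids to amino acids, 0.29 (SE 0.24, adjusted p = 1.00). At D0 8 of the 9 measured on at least 3 arrays of both tissues were higher in liver than in lung and 4 of 5 higher than in forestomach, beside 27.7% and 21.3% of all such probes. Of 14 efflux carriers such as Abcb11, 0 were called in any tissue. In lung, 10 of them were tested with a median change of -0.07, beside -0.03 over all lung probes. At an unadjusted p of at most 0.05, which 16.1% of all lung probes reached, 3 of the 10 passed. Abcb1b, a P-glycoprotein gene, gave 0.28 (limma adjusted p = 0.258), Abcc3, a sinusoidal organic anion pump, -0.23 (adjusted p = 0.182) and Atp7b, a copper pump, -0.20 (adjusted p = 0.309).

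Relatives of the members and the factors known to drive them did not pass either. Their lung values also include mice 17 and 19. Of 9 other Slco genes 2, 4 and 3 were tested in liver, lung and forestomach and 0 called. Slco3a1 in forestomach gave 0.60 (SE 0.19, unadjusted p = 0.00504, adjusted p = 0.269). At D0, 2 other Slco genes were measured in both liver and lung by the same rule, of which 0 were higher and 1 lower in liver. Of 23 other Slc22 genes, 13, 13 and 10 were tested and 0 called, while Slc22a28, an organic anion carrier, gave -0.19 in liver (SE 0.19) and -0.18 in lung (SE 0.09, unadjusted p = 0.0494, adjusted p = 0.308). Of 9 other Slc10, Slc47 and Slc51 genes, 4, 3 and 3 were tested and 0 called. Among 20 nuclear receptors and liver-enriched factors, 19, 16 and 17 were tested and 0 called. Foxa2, a forkhead factor of liver and other endoderm-derived tissues, was the member of this list at an unadjusted p of at most 0.05, with -0.45 in liver (SE 0.21, unadjusted p = 0.0491, adjusted p = 1.00) and -0.31 in lung (SE 0.12, unadjusted p = 0.0191, adjusted p = 0.235), beside 4.78% and 16.1% of all probes. At D0, 5 of 11 factors measured in both tissues by that rule were higher and 2 lower in liver than in lung, beside 27.7% and 25.8% of such probes.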

How the data were processed

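Members, gene lists and tests were chosen with earlier results of these data known. Per the file headers, the deposited scanner files hold the median intensity of each spot in both dyes from Feature Extraction 10.7.3.1, with flags of 0 or 1 for spots well above background or saturated. The authors also deposited a table that gives for each array and probe the log2 ratio of sample to reference, to which LOWESS had been applied array by array per the methods, without background subtraction. No dyes were swapped, so a probe's dye bias cancels only between arrays. Against ratios computed from the scanner signals this table had an r of 0.977 to 0.998 and a slope of 0.953 to 0.996 per array. Its direction and log2 scale follow from that.

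The 3671 control spots were left out, and the other 59305 spots hold 55681 probes. The probes were named through RefSeq accessions on GRCm38.p6. For each gene and tissue the probe with the highest mean Cy5 median signal was used. A probe was tested where Cy5 was well above background on at least 3 arrays of the tissue. Doses were compared by limma 3.58.1 (R 4.3.3; lmFit and eBayes, two-sided) on the authors' log2 ratios, with p values adjusted by Benjamini-Hochberg over all probes tested. The methods name the MAANOVA Fs test, for which limma stands here. Called means an adjusted p of at most 0.05 and a fold change of at least 1.5. The trend used the dose step as a linear term. Tissue differences and their interaction with D3 came from 1 fit of all 56 arrays. A lower bound for a dim group was taken from normalized Cy5 levels, which are open to dye bias, and is given only where it is below the fold of the ratios. Correlations across livers used 100000 permutations. Named genes were the members, their 3 nearest genes in liver, and per list and tissue those with the largest D3 changes. The scripts were tested on simulated data with 200 shifted probes.

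Mouse numbers pair tissues of the same animal by the labels. Over 22301 probes the median correlation of same-mouse deviations was 0.12 for liver and lung, 0.06 for liver and forestomach and 0.02 for lung and forestomach, and the mouse was tried as a random block. Replicates are separate mice. Alternatives were other normalizations and background correction, filters, slide block, array column, array weights, other probes and left-out mice. The number of arrays limits the precision.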

Additional observations from a re-analysis of the deposited data

Results flagged for a closer look

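Of 64 groups of 4 or more arrays looked at over the members, 3 held an array whose gap to its nearest neighbour was a large part of the group's range (Dixon's 95% limit). Such a gap is found by chance in about 1 of 20 groups. Slco2b1 in the D3 livers was 6.36 for mouse 20 against 6.92 for the nearest mouse, a gap of 0.715 of the range. The second Slco2b1 probe was also lowest for mouse 20 among the D3 livers, at 4.19. Slc22a7 in the D3 livers was 5.94 for mouse 17 against 5.68 for the nearest mouse, a gap of 0.849 of the range. Slco2a1 in the D2 forestomachs was 2.30 for mouse 12 against 1.17 for the nearest mouse, a gap of 0.848 of the range. The mean of 11 glandular stomach genes was also highest for mouse 12 among the D2 forestomachs, at 7.12 against 5.51 to 5.85.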

How the results depend on the processing

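The number of members called for D3, D1, D2 or the trend was 0 under every alternative run. Of 482 D3 values under alternatives 433 kept their direction, 49 turned and 0 were called (lowest adjusted p 0.0902), and the cause of each turn was not tested. Of 264 tissue differences 253 kept direction and call. These include members measured in liver alone, 5 in the comparison with lung and 6 in that with forestomach. Since those had to differ, the share says little of how far the other differences depend on processing. In liver, the D3 change turned for Slco2b1 to -0.020 with loess of the scanner signals, -0.089 with median centring, -0.0096 with slide as a block, -0.052 with the array column and -0.19 with the second probe. With normexp it turned to 0.061 for Slco1a1, 0.15 for Slco1a4, 0.0027 for Slco1b2, 0.044 for Slco2a1 and 0.020 for Slc22a7. It was 0.036 for Slco1b2 with the array column, 0.027 for Slc10a1 and 0.021 for Slc22a7 with array weights, and 0.072 for Slc10a1 with the second probe. Without turning, Slco1a4 moved from -0.15 to -0.71 with the array column (adjusted p = 0.992), past the 1.5-fold limit in size, and Slco2b1 from 0.01 to 0.29 with normexp (adjusted p = 0.978). The array column also carried forestomach changes past that limit, to 0.83 for Slco1b2, -0.80 for Slco2a1 and 0.87 for Slc47a1, none of them called. In lung it turned for Slc10a1 to -0.0033 with scanner loess, for Slco2a1 to 0.024 with median centring, 0.34 with the array column and 0.11 without mice 17 and 19, and for Slco2b1 to -0.092 with the array column. In forestomach it turned for Slco2a1 to 0.29 with median centring, 0.11 with array weights and 0.23 with the glandular stomach covariate, for Slc47a1 to -0.047 with that covariate, and for Slco2b1 to -0.23 with the array column.

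Leaving out each mouse in turn gave D3 changes in liver of -0.12 to 0.039 for Slc10a1, -0.27 to -0.15 for Slco1a1, -0.36 to 0.042 for Slco1a4, -0.13 to -0.037 for Slco1b2 (the latter without mouse 3), -0.059 to 0.14 for Slco2b1, -0.12 to 0.062 for Slco2a1, -0.073 to 0.0042 for Slc22a7 and 0.20 to 0.37 for Slc47a1. In lung it gave -0.094 to 0.13 for Slc10a1, 0.46 to 0.66 for Slco2b1, -0.33 to -0.069 for Slco2a1 and 0.13 to 0.29 for Slc47a1. In forestomach it gave 0.14 to 0.54 for Slc10a1, 0.15 to 0.78 for Slco1b2, 0.083 to 0.68 for Slco2b1, -0.38 to 0.22 for Slco2a1 and -0.12 to 0.24 for Slc47a1.

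At D0, Slc10a1 in liver minus lung was 6.39 with the second probe, given with no test. That probe was well above background on 0 of 18 lung arrays, so 6.39 is not a difference between measured levels. In liver minus forestomach the brightest Slc10a1 probe gave -0.28 with scanner loess, -0.26 with normexp and 1.44 with median centring (adjusted p = 0.132). As a mean over the dose groups it gave 0.47, under the fold limit. Without mouse 1 it was 0.57, also under the fold limit. The Slco2b1 difference in lung minus forestomach, given above with no test, passed the limits in the main fit. It did not pass in a fit of only the groups compared or without mouse 3. It was -0.055 without forestomach slides 1 and 2, where Slc47a1 was -0.17 and 2 members were called. With median centring Slc47a1 in lung minus forestomach was 0.060. The alternative on slides and the second probes for tissue differences were added after the data were seen. The count of correlated pairs was 0 by Pearson's r and 1 by rank with scanner loess, and the same counts held with the other Slc10a1 probe, where r for Slco1a4 and Slc47a1 stayed 0.64. With the mouse as a replicate block, 8, 8 and 4 members were called between tissues, as without it, and 0 D3 effects differed. Only 3, 2 and 2 of these members were measured in both tissues. The others passed the filter without that, so their calls say little on the pairing. Members not well above background in a tissue have only a bound there, and dim spots limit what lung and forestomach arrays show of the hepatic carriers.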

Other observations

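In liver the brightest Slc10a1 probe gave lower values on slide 2, at 1.00 to 1.23, than most arrays of the other slides, which ranged from 1.13 to 1.74. Of the liver list of other bile salt carriers, Slc10a2, the ileal bile salt carrier, averaged 5.34 in the D0 livers and 5.23 in the D3 livers. Slc22a28, an organic anion carrier, averaged 6.08 and 5.89. In forestomach Slc10a6, a carrier of sulfated steroids, averaged 4.16 at D0 and 4.67 at D3, a change of 0.52 (SE 0.67, adjusted p = 0.885).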
